A study of Rattus norvegicus with 232 samples.

Results

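The brain of the rat holds blood, and its total RNA therefore holds the transcripts of red cells. The 7 genes described here were haemoglobin genes of the v7.1 table of RefSeq genes together with Alas2. The globins were Hba-a1, Hba-a2 and Hba-a3 of the alpha cluster and Hbb, Hbb-b1 and Hbb-bs of the beta cluster. The 7 genes were chosen by name and all were present. The table held 20859 features in all once spike-ins were left out. It also names the globin genes Hbb-b2 and Hbq1b, which are not among the 7. Haemoglobin joins alpha and beta chains around haem, and Alas2 is the erythroid form of the enzyme that starts haem synthesis. Young red cells carry these messages at very high levels after they have lost their nucleus, so that a small volume of blood can give a strong signal in a tissue. Rodent genomes carry several copies of each chain gene in a cluster, and strains can differ in the copies they hold.

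The animals were untreated rats of the Hybrid Rat Diversity Panel, a collection of inbred strains, and were described by the study as males. Their brains were sequenced as ribosome-depleted, stranded total RNA. The table gave 214 libraries of 197 animals in 74 strains, of which 88 animals came from 30 HXB/BXH strains, 43 from 19 FXLE/LEXF strains and 66 from 25 other inbred strains. The HXB/BXH strains were bred from a cross of BN-Lx/Cub with SHR/OlaIpcv and the FXLE/LEXF strains from a cross of F344/Stm with LE/Stm, and these 4 progenitors are counted with the other inbred strains. There were 3 animals in 54 strains, 2 in 15 and 1 in 5. The labels gave no age, and by the study's methods the rats were young adults killed with CO2. Those methods cover part of these strains. The HXB/BXH rats and their progenitors were bred at 1 institute and their brains shipped frozen in liquid nitrogen. In all strains that those methods cover, the brain was split along the midline and 1 side was sequenced. Classic inbred rats came from 2 vendors, and their brains were put in RNAlater, which the labels name for all samples. Breeder, handling of the tissue and panel therefore cannot be told apart, the source of the FXLE/LEXF rats is not given in the sources used here, and no source states that blood was flushed out.

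Values were on the deposited log2 scale. They were not corrected for gene length, so that levels were compared between animals and not between genes, and the depth of the libraries is unknown. Brain genes were abundant in brains low and high on the haemoglobin index, which is defined below. The mean over 8 neuronal genes was 13.62 to 13.69 in the 3 strains lowest on the index, among strains with 3 animals. It was 13.67 to 13.70 in the 3 highest of these. A group of 10 animals stood apart. The 3 LEW/Crl animals and HXB17/Ipcv 2 were low in the Y-linked genes Kdm5d, Eif2s3y and Uty, with Kdm5d at 9.32 to 9.64 against at least 10.21 in the other animals. LE/Stm 2, the lone animal of that strain, was high in the liver gene Alb at 23.18, against a median of 11.37 over all animals. The other 5 animals, namely BXH6/Cub 3, BXH10/Cub 3, F344/Stm 1, HXB10/Ipcv 1 and LEXF2C/Stm 3, were nearest to an animal of another strain, as were HXB17/Ipcv 2 and LE/Stm 2. For BXH6/Cub 3, BXH10/Cub 3 and HXB10/Ipcv 1 that animal was LE/Stm 2, and their Alb was 17.23, 14.56 and 15.32, of which the latter pair lie within the range of the animals that did not stand apart (9.76 to 15.74). Apoa1, another liver gene, was at 11.55 in HXB10/Ipcv 1, above the 9.37 that was highest among those animals. Without these 10 animals, 7 of 7 members passed for strain over all animals, among the HXB/BXH strains and at equal haemoglobin level. Between the progenitors of HXB/BXH 6 passed and between panels 0. Each count is that with all animals in the comparisons below, which give the shares of all features for all animals.

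The 250 bases upstream of each globin gene show how the copies are related, and they are given because single copies did not all follow the same strain order. The sequences are those of the RefSeq genome GRCr8, read 5′ to 3′ on the strand of the gene and ending at the base before the annotated start. Capitals mark matches to any of 4 short motifs on either strand. A CCAAT box was searched as CCAAT, which reads ATTGG on the other strand. A TATA box was searched as TATAAA. The motif of the erythroid factor Klf1 was searched as CACCC and that of Gata1 as GATAA. The alpha copies lay on the minus strand of chromosome 10, with windows at chr10:15842581-15842830 for Hba-a1, chr10:15829139-15829388 for Hba-a2 and chr10:15816944-15817193 for Hba-a3.

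Hba-a1: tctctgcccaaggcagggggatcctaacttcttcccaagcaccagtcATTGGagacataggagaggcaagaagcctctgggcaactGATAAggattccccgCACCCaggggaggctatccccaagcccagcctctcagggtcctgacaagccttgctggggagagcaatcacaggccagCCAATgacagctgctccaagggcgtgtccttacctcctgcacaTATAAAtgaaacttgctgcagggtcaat

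Hba-a2: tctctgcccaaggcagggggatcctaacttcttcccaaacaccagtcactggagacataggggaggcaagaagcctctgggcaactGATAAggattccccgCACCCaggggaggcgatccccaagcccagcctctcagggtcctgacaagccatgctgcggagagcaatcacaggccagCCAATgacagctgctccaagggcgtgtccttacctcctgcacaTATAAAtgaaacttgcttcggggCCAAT

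Hba-a3: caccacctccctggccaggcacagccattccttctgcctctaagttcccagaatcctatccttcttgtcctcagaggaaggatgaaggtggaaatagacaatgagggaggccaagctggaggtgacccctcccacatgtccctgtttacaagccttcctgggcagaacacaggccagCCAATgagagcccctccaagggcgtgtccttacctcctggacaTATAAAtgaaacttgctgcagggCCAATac

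The windows of Hba-a1 and Hba-a2 were identical at 96.4% of aligned positions, whereas that of Hba-a3 was identical to them at 66.4% and 65.5%. All 3 windows held CCAAT and TATAAA, and CACCC and GATAA were found in those of Hba-a1 and Hba-a2 and in no place of the Hba-a3 window. The beta copies lay on the minus strand of chromosome 1, with windows at chr1:167663722-167663971 for Hbb, chr1:167643521-167643770 for Hbb-b1 and chr1:167631631-167631880 for Hbb-bs.

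Hbb: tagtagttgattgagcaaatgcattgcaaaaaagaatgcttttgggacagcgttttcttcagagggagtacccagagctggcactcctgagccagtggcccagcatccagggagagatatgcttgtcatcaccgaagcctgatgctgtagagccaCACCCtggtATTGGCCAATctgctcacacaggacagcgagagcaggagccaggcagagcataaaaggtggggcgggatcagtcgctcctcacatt

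Hbb-b1: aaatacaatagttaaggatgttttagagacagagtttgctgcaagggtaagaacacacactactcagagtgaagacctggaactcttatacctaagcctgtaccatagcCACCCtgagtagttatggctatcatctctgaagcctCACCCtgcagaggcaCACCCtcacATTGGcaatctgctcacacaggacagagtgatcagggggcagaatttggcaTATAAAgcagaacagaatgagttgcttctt

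Hbb-bs: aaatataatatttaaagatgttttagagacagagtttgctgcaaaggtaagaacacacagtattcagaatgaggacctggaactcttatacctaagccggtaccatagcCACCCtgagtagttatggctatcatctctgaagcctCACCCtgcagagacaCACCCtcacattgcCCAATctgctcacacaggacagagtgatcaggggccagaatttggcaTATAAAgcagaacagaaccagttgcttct

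The windows of Hbb-b1 and Hbb-bs were identical at 93.6% of positions and that of Hbb at 60.9% with Hbb-b1. CACCC was found in all 3 beta windows, CCAAT in all 3 on at least 1 strand, TATAAA in those of Hbb-b1 and Hbb-bs, and GATAA in none of them. The window of Alas2, on chromosome X, held GATAA alone of these motifs. Over 33469 promoters of the same length, 34.0% held CCAAT, 12.9% TATAAA, 49.2% CACCC and 23.5% GATAA, so that a match is common. The window of Hbb-b2, a beta gene of the table that is not a member, was identical to that of Hbb-b1 at 97.2% and of Hbb-bs at 94.8%. The windows lie upstream of the transcripts, and the transcripts themselves were not compared. Whether copies with close windows share reads was not tested. How the values were divided between copies is not stated for this table.

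The level of haemoglobin message in the brain differed between strains. Hba-a1 ran over the 197 animals from 12.34 through a median of 13.55 to 15.23, a 7.43-fold range. Hba-a2 ran from 11.58 through 12.85 to 14.51, Hbb from 12.92 through 14.17 to 15.67, Hbb-bs from 9.03 through 10.48 to 12.07 and Alas2 from 7.82 through 8.97 to 10.61. Hbb-b1 ran from 8.54 through 9.69 to 11.15, and Hba-a3, the copy with the widest span at 16.1-fold, from 5.22 through 7.43 to 9.23. All 7 members passed the limma moderated F-test over strains at a false discovery rate (FDR) of 5%, where 37.3% of all features passed. The share of variance between strains (broad-sense R2) was 0.63 for Hba-a1, 0.64 for Hba-a2, 0.65 for Hbb, 0.69 for Hbb-bs and 0.67 for Alas2, against a median of 0.45 over all features and 0.37 expected of shuffled labels. It was 0.74 for Hbb-b1 and 0.93 for Hba-a3, the latter higher than in 99.9% of features. The adjusted p ran from 1.08e-43 for Hba-a3 to 6.22e-07 for Hba-a1, and without the 10 animals that stood apart all 7 members passed again, with R2 of 0.65 to 0.93.

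A haemoglobin index was taken as the mean over the 6 globin members of the value minus that gene's mean over animals, and it is described without a test. It ran over animals from -1.38 in HXB17/Ipcv 2 to 1.16 in BXH5/Cub 2. The strain means formed a continuous order from BXH13/Cub at -0.81 to BXH5/Cub at 0.95, a 3.39-fold range. No gap between neighbours in this order of 74 strains exceeded 0.16, and the SD between animals of a strain was 0.32, so that neighbouring strains did not differ beyond their spread. Among strains with 3 animals, the lowest were BXH13/Cub at -0.81 ± 0.33 (SD, n = 3), HXB17/Ipcv at -0.73 ± 0.59 and M520/N at -0.45 ± 0.09. HXB17/Ipcv owed its place to animal 2, which stood apart, and the mean of its other 2 animals was -0.41. The index weighs Hba-a3 like the other globins, and M520/N had the lowest Hba-a3 of the other inbred strains, at 5.67. Its Hbb was 14.08 and its Alas2 8.85, above the 13.85 and 8.51 of BN/NHsdMcwi, which was at -0.44 on the index. The highest were BXH5/Cub at 0.95 ± 0.35, SR/JrHsd at 0.89 ± 0.27 and HXB29/Ipcv at 0.63 ± 0.49. For Hbb, the values were 13.89, 13.15 and 13.67 in the animals of BXH13/Cub and 14.51, 15.31 and 15.49 in those of BXH5/Cub. For Alas2, they were 8.70, 7.84 and 8.61 against 9.57, 10.30 and 10.39. These strains were picked at the ends of an order that uses the globins, so that the values are a description. In HXB29/Ipcv the animals were spread from 0.20 to 1.16 on the index, which overlaps many strains.

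**Figure D1:**
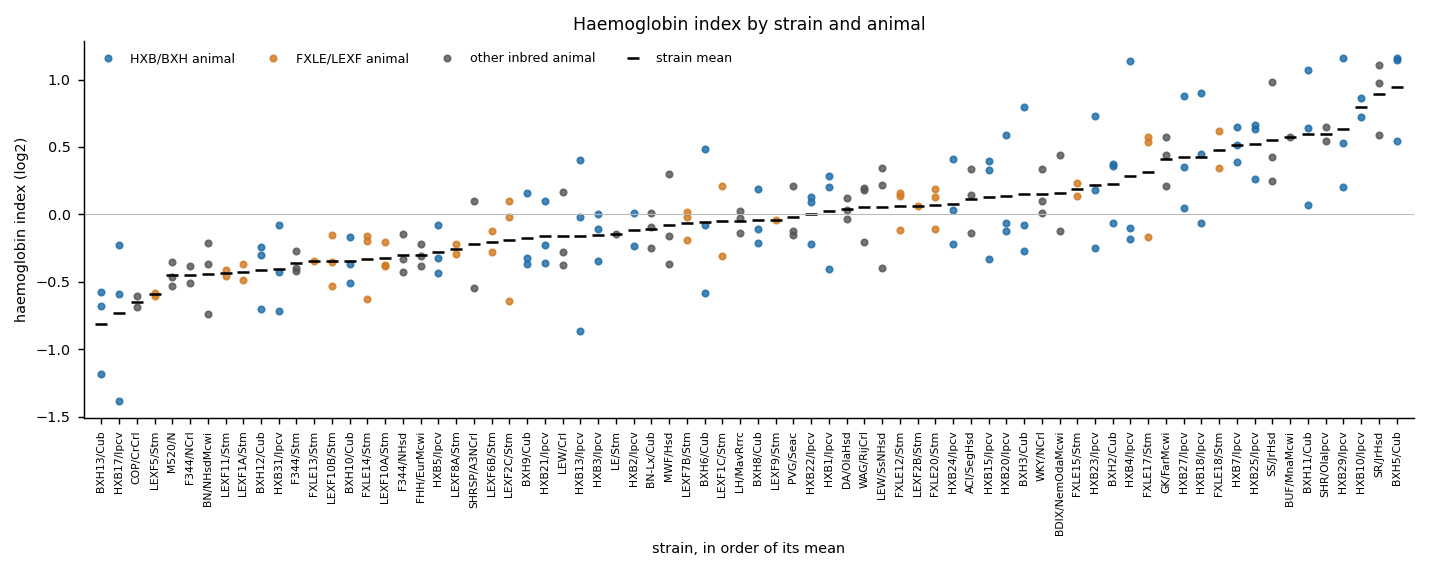
The haemoglobin index (log2, mean over 6 globin genes of the value minus that gene's mean over animals) is plotted for each of 197 animals, with strains in order of their mean (black bars) and colours for the panel. Strain means rise without a step from -0.81 in BXH13/Cub to 0.95 in BXH5/Cub, and animals of many strains span much of that range.

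The strain effect was also seen within the family of strains from a single breeding place. Among the 88 animals of the 30 HXB/BXH strains, 7 of 7 members passed the limma F-test, where 19.1% of features did. Their R2 was 0.58 to 0.61 for all but Hba-a3, for which it was 0.91, against a median of 0.41 over all features, and the adjusted p was at most 0.00234. With the animals numbered 2 left out, 1 of the 7 passed by limma, namely Hba-a3, and the adjusted p of the others was 0.064 to 0.20. These animals include the low HXB17/Ipcv 2 and BXH13/Cub 2. Calls over all features also came down from 3992 when the animals of a number were left out, as given at the end. The reason was not tested. Panels were compared over strain means. The strain means of HXB/BXH were above those of FXLE/LEXF by 0.21 for Hba-a1, 0.30 for Hbb and 0.37 for Hbb-bs, and 0 of 7 members passed in any of the 3 contrasts between panels, with limma adjusted p of 0.63 to 1. At an unadjusted p under 0.05 there were 4 of 7 members between HXB/BXH and FXLE/LEXF and 0 in the contrasts with the other inbred strains, beside 5.35% of all features in the former and 2.39% (HXB/BXH) and 10.2% (FXLE/LEXF) in the latter. At 5% FDR, of all features 0% passed in both contrasts with the other inbred strains and 0.00479% in that between the 2 recombinant families.

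The members passed for strain and not for sequencing batch where both were fitted. By the study's methods, its counts had been adjusted for batch by means of control isoforms least associated with strain. Whether the v7.1 values were adjusted in this way is not given. If they were, the test of batch covers only what that step left. Among 196 animals with 1 library each, spread over 17 batches, 0 of 7 members passed for batch in a limma fit that also held strain, and 1.19% of features passed. At an unadjusted p under 0.05 there were 2, beside 15.4% of all features, namely Hba-a3 (partial R2 0.26, p = 0.00103, adjusted p = 0.0668) and Hbb-b1 (partial R2 0.21, p = 0.0181, adjusted p = 0.208). For the other members the partial R2 of batch was 0.11 to 0.13, beside a median of 0.11 over all features. In the same fit 7 of 7 members passed for strain, beside 59.4% of features. Their partial R2 of strain was 0.64 to 0.94, beside a median of 0.507 over all features. Strain has many more levels than batch, so that its partial R2 is larger from the outset.

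The members moved together from animal to animal within strains. Deviations from the strain mean were compared over 192 animals of 69 strains for the 21 pairs of members. All 21 pairs had a positive Pearson r, from 0.47 to 0.98 with a median of 0.79, and a Spearman rho from 0.47 to 0.97. Each p was 1e-05 in a two-sided test with 100000 permutations within strains, which is the smallest these can give, and the Benjamini-Hochberg adjusted value over the 21 pairs was 1e-05 too. The closest pair was Hba-a1 with Hba-a2 at 0.98, followed by Hbb with Hbb-bs at 0.93 and Hbb with Alas2 at 0.90. Pairs across the alpha and beta clusters were also close, such as Hba-a2 with Hbb-bs at 0.865. Hba-a3 was the most loosely tied, at 0.47 with Hbb-b1 and 0.66 with Alas2. Without the 2 animals farthest from the median, r ran from 0.46 to 0.98. Within the 15 batches that held at least 6 animals the median r of the 21 pairs was 0.52 to 0.96, all 21 pairs were positive in 11 of these batches and at least 17 were in each, and 2 batches held too few animals.

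**Figure D2:**
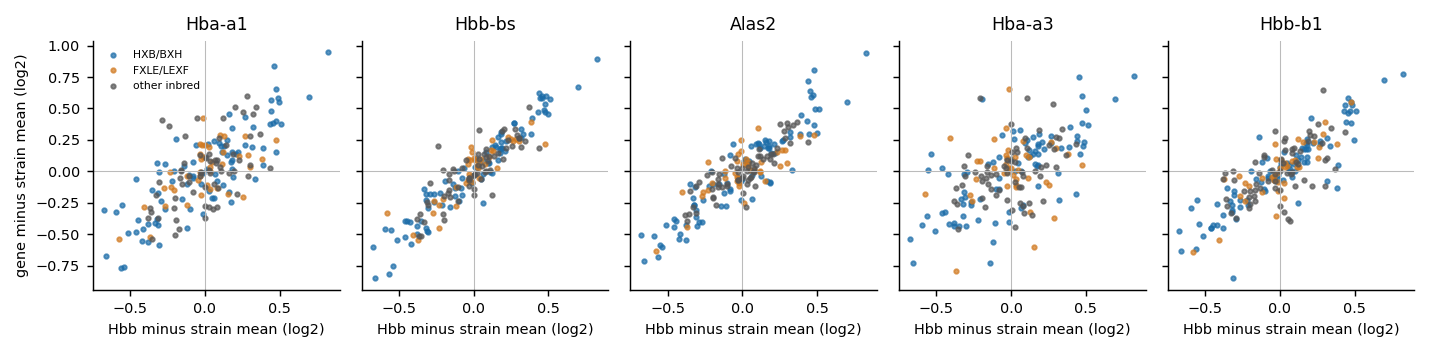
Each point is 1 of 192 animals, with its deviation from the strain mean of Hbb (x axis, log2) against that of Hba-a1, Hbb-bs, Alas2, Hba-a3 or Hbb-b1 (y axis, log2) and colours for the panel. Points lie close to a line for Hbb-bs (r = 0.93) and Alas2 (r = 0.90) and scatter most for Hba-a3 (r = 0.56).

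Strain means told a different order for a pair of copies. Over the 74 strain means, the 10 pairs among Hba-a1, Hba-a2, Hbb, Hbb-bs and Alas2 had r of 0.87 to 0.98, given as a description. The 6 pairs with Hba-a3 had r of 0.17 to 0.30 and the 6 pairs with Hbb-b1 of 0.24 to 0.43. The same copies had r of 0.47 to 0.66 and of 0.47 to 0.83 within strains.

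Single copies were next compared between strains at an equal haemoglobin level. With the index as a covariate, 7 of 7 members passed the limma F-test over strains, where 45.5% of features passed, and the R2 of the value minus the index was 0.76 to 0.94 (p = 1e-05 for each, the smallest that 100000 permutations of strain labels can give). Because the index contains the members, it was also taken without Hba-a3, Hbb-b1 and the member tested. The calls for Hba-a1 (adjusted p = 0.101), Hbb (0.11) and Alas2 (0.134) were then lost, where 48%, 50.9% and 45.4% of features passed in the fits for Alas2, Hbb and Hba-a1. Hba-a3 (partial R2 0.95, adjusted p = 7.68e-54), Hbb-b1 (0.86, 4.64e-27), Hbb-bs (0.69, 5.86e-10) and Hba-a2 (0.54, 0.0019) passed in both fits.

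Hba-a3 fell into a low and a high set of strains within the HXB/BXH family, but not over all strains together. In that pooled order of Hba-a3 minus the index the widest gap was 0.284, beside an SD of 0.247 within strains. It lay near the low end, between HXB4/Ipcv at 5.66 and HXB23/Ipcv at 5.945. In the HXB/BXH family, Hba-a3 minus the index was 5.55 to 6.92 in 15 strains and 7.58 to 8.39 in the other 15, and the gap of 0.66 between these sets was wider than any other, the next being 0.28. The progenitors lay on either side, SHR/OlaIpcv at 6.06 and BN-Lx/Cub at 7.89, and 15 strains were nearer to each. The 44 animals of the low strains ran from 5.14 through a median of 6.44 to 7.07 and the 44 animals of the high strains from 7.44 through 7.87 to 8.65. The sets were cut at the gap, so that their lack of overlap is a description. The lowest strain was BXH6/Cub, with 5.14, 5.30 and 6.21 in its animals, and the highest HXB27/Ipcv, with 8.41, 8.54 and 8.22, a 7.14-fold difference of the means. BXH6/Cub 3, the highest of the BXH6/Cub animals, is among those nearest to another strain. The other panels showed a gap as well. In FXLE/LEXF it lay between 6.67 and 7.11, with 7 strains below and 12 above, and was little wider than the next at 0.425. F344/Stm was at 6.73 and the single LE/Stm animal, which carries the high liver gene, at 8.10. In the other inbred strains the gap lay between 6.73 and 7.31, with 8 strains below, among them FHH/EurMcwi, M520/N and SHRSP/A3NCrl, and 17 above. With the index taken without Hba-a3 and Hbb-b1, the HXB/BXH gap was 0.775 with 15 strains on each side, whereas that of FXLE/LEXF moved to between 7.05 and 7.61, with 8 strains below and 11 above. On the raw values the HXB/BXH gap was 0.358, with 14 strains below and 16 above. No set of genotypes was used here, and whether reads of Hba-a3 aligned equally well in all strains was not tested.

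**Figure D3:**
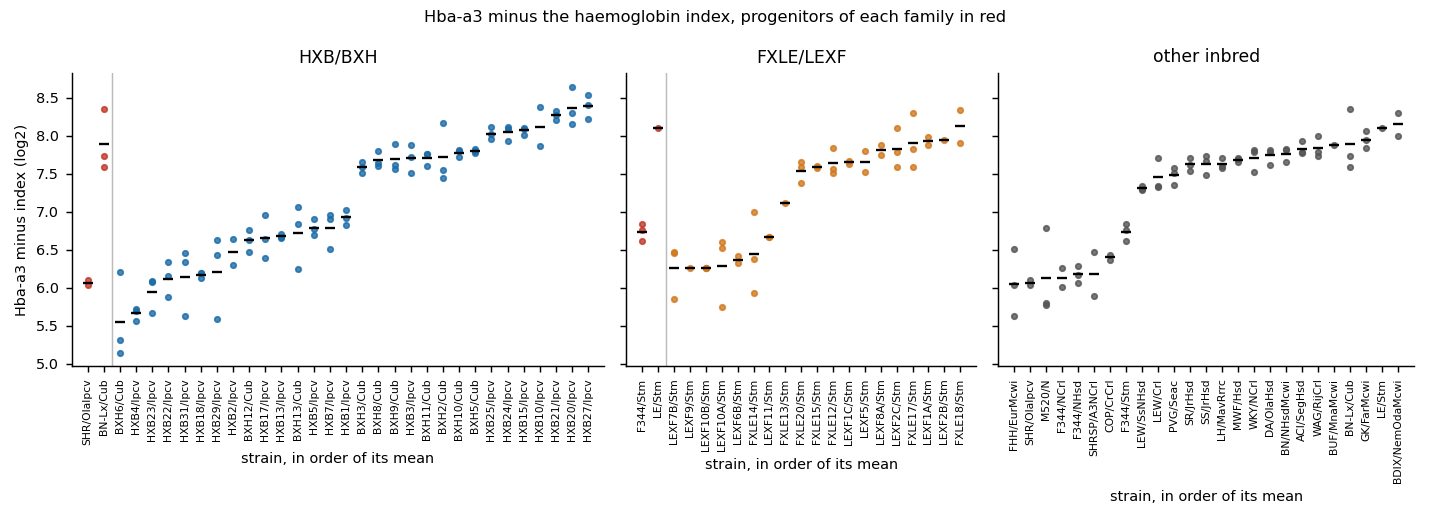
Hba-a3 minus the haemoglobin index (log2) is plotted for each animal, with black bars for strain means, strains in order within each panel and the 2 progenitors of each recombinant family in red at the left. In HXB/BXH, 15 strains lie at or below 6.92 beside SHR/OlaIpcv at 6.06 and 15 at or above 7.58 beside BN-Lx/Cub at 7.89.

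Hbb-b1, one of the beta copies, had its widest span among the classic inbred strains. Its value minus the index was lowest in GK/FarMcwi, with 8.44, 8.62 and 8.45 in the 3 animals, in BDIX/NemOdaMcwi, with 8.90 and 8.36, and in WKY/NCrl, with 8.99, 8.93 and 8.85. It was highest in FHH/EurMcwi, with 10.53, 10.59 and 10.67, in the lone BUF/MnaMcwi animal at 10.58 and in LEW/Crl, with 10.67, 10.50 and 10.20. With the index taken without Hba-a3 and Hbb-b1, GK/FarMcwi remained the lowest at 8.39, followed by BDIX/NemOdaMcwi at 8.60 and, at nearly the same value, SHR/OlaIpcv at 8.835 and WKY/NCrl at 8.85. BUF/MnaMcwi became the highest at 10.96, LEW/Crl was next at 10.71, and FHH/EurMcwi at 10.53 was also below LH/MavRrrc at 10.62 and PVG/Seac at 10.59. GK/FarMcwi and FHH/EurMcwi differed 4.25-fold, which is a description since the strains were picked at the ends of this order. Of the strains high in Hbb-b1, FHH/EurMcwi was low in Hba-a3 minus the index at 6.05, whereas BUF/MnaMcwi was at 7.88 and LEW/Crl at 7.46. Of those low in Hbb-b1, GK/FarMcwi was at 7.95, BDIX/NemOdaMcwi at 8.15 and WKY/NCrl at 7.71. The index holds both copies, which sets them against each other. Strain means of their raw values had r of 0.236. In the HXB/BXH family Hbb-b1 minus the index ran from 9.21 to 10.08, with no gap between neighbouring strains wider than 0.13. The other 5 members spanned 0.84 to 1.01 between their lowest and highest strains, that is at most 2.01-fold, with the index that holds Hba-a3 and Hbb-b1. Without both in the index their spans were narrower, as for Hbb-bs with 10.17 to 10.81 beside 10.14 to 11.15. How reads were divided between Hbb-b1 and its close copies in each strain was not tested.

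**Figure D4:**
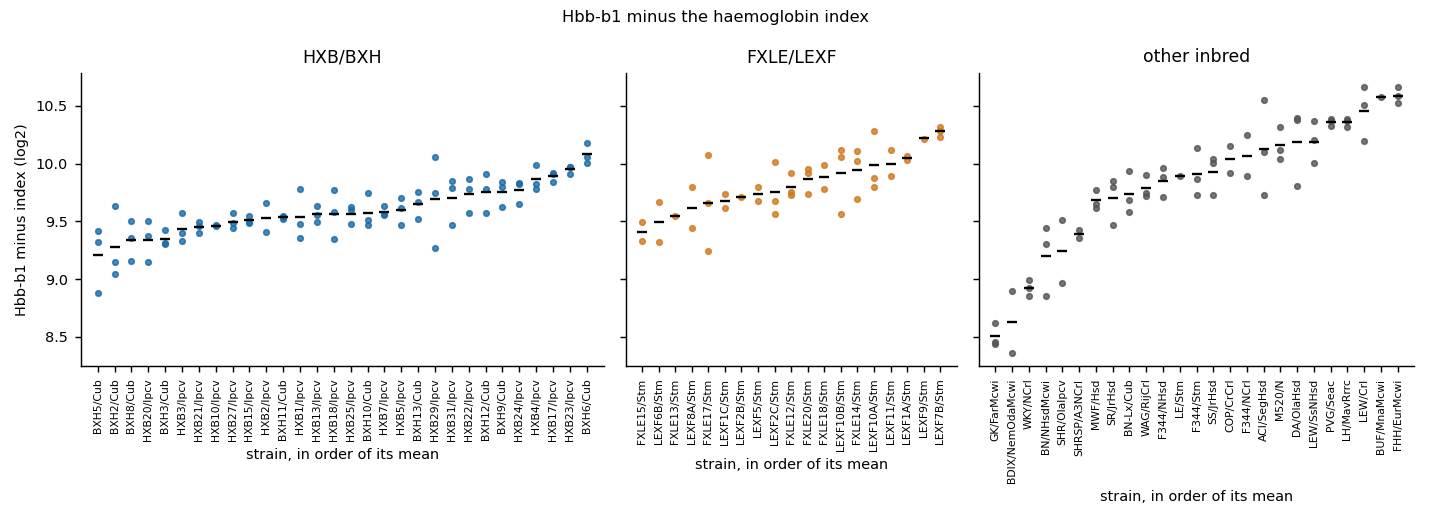
Hbb-b1 minus the haemoglobin index (log2) is plotted for each animal in the 3 panels, with black bars for strain means and strains in order of these. The other inbred strains reach from 8.50 in GK/FarMcwi to 10.59 in FHH/EurMcwi, whereas the HXB/BXH strains lie between 9.21 and 10.08.

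The progenitors SHR/OlaIpcv and BN-Lx/Cub differed in most members in this table. Hba-a1 was 14.53 and 14.55 in the SHR/OlaIpcv animals 1 and 4 and 12.98, 13.54 and 13.26 in the BN-Lx/Cub animals, with no overlap. The difference, BN-Lx/Cub minus SHR/OlaIpcv, was -1.28 ± 0.34 (SE) with a limma adjusted p of 0.0105. Hba-a2 (-1.37), Hbb (-1.08), Hbb-bs (-1.41) and Alas2 (-1.49, adjusted p = 0.000535) were also lower in BN-Lx/Cub, so that 5 of 7 members were called lower, where 1.87% of features were. Hba-a3 went the other way, with 6.75 and 6.57 in SHR/OlaIpcv and 7.34, 7.64 and 8.36 in BN-Lx/Cub, a difference of 1.12 ± 0.31 (SE, adjusted p = 0.017), where 2.63% of features were called higher. Hbb-b1 did not pass, at -0.21 ± 0.30 (SE, adjusted p = 0.754), with 10.16 and 9.51 against 9.69, 9.49 and 9.69. With batch as a covariate and 1 library per animal it was at -1.22 (adjusted p = 0.0867). These differences rest on SHR/OlaIpcv animals 1 and 4. With the animals numbered 1 left out a lone SHR/OlaIpcv animal remained, too few to judge the spread in that strain. The differences were then -1.15 for Hba-a1, -1.12 for Hbb, -1.46 for Hbb-bs, -1.35 for Alas2 and 1.43 for Hba-a3, close to those with all animals for the first 4. With 1 library per animal 2 members passed, Alas2 at -1.26 (adjusted p = 0.00671) and Hba-a3 at 1.06 (adjusted p = 0.0415), while Hba-a1 was at -0.997 and Hbb at -0.87 (adjusted p = 0.107 and 0.133). With batch added as well 2 passed, Hba-a2 at -1.77 and Alas2 at -1.56. The features called in both of these fits are counted at the end. Hba-a3 also missed the threshold without the animals numbered 2 (adjusted p = 0.0522), without those numbered 3 (0.83, adjusted p = 0.102) and with a replicate block (1.05, adjusted p = 0.115), which lost Hbb too (adjusted p = 0.0534). The older v6 table also holds SHR/OlaIpcv animal 3, in which Hbb was 14.77 and Alas2 was 9.11, beside 14.80 to 15.20 and 8.75 to 9.33 in BN-Lx/Cub and 15.85 to 15.96 and 10.26 to 10.39 in SHR/OlaIpcv animals 4 and 1. Animal 3 thus lay among the BN-Lx/Cub animals in Alas2 and slightly below them in Hbb, and of the members named there Hba-a1, Hbb and Alas2 did not pass. In the v5 table, with SHR/OlaIpcv animals 1 and 2 and a library not tied to a numbered animal, 0 of 4 members passed, with Hbb at 0.04 and Alas2 at -0.49 (adjusted p = 0.385). Alas2 was there 9.19 to 9.83 in SHR/OlaIpcv and 8.85 to 9.15 in BN-Lx/Cub, without overlap and in the direction of v7.1. The identifier named Hba-a3 in v6 differed by -1.35 (adjusted p = 0.0289), which is the reverse of v7.1, and the annotation of v5 gives that same identifier the name Hba-a2.

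Repeated libraries of an animal varied about as much as different animals of a strain did. SHR/OlaIpcv animal 1 had 12 libraries, read as technical repeats from their shared replicate number, and animal 4 had 6, each in its own batch. Hbb ran over the libraries of animal 1 from 14.43 in batch 11 through a median of 15.22 to 15.92 in batch 16, a 2.83-fold range, and over those of animal 4 from 14.67 through 15.27 to 15.78. Hba-a1 ran from 13.31 through 14.60 to 15.55 in animal 1, a 4.73-fold range, and from 13.79 through 14.56 to 15.16 in animal 4. The SD over libraries of the haemoglobin index was 0.42 in animal 1 and 0.38 in animal 4, beside an SD of 0.32 between animals of a strain and of 0.38 between strain means. Without the batch 11 library it was 0.294 in animal 1, below that between animals. Over single members it was 0.30 to 0.57 in animal 1 and 0.22 to 0.53 in animal 4, beside 0.337 to 0.388 between animals of a strain. The medians over all features were 0.162 and 0.134, beside 0.162 between animals of a strain. A like spread of libraries and animals was therefore not particular to the members. The SD over libraries was below that between animals for Alas2 (0.303 against 0.345) and Hbb-bs (0.363 against 0.376) in animal 1 and for Hbb-b1 (0.224 against 0.337) in animal 4, and above it for the other members. Without batch 11 it was above in 3 of 7 members in animal 1. BN-Lx/Cub animal 3 had 2 libraries, which gave 14.08 and 14.40 for Hbb and 13.27 and 13.26 for Hba-a1.

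The library of animal 1 in batch 11 was the lowest of its 12 for 6 of 7 members, while its Alas2 value of 10.10 lay near the median of 10.18. Over the 12 libraries the 10 pairs among Hba-a1, Hba-a2, Hbb, Hbb-bs and Alas2 had r of 0.596 to 0.993, and without batch 11 of 0.784 to 0.989, given as a description since the libraries share an animal. Of all 21 pairs 20 were positive, the lowest at -0.061, and without batch 11 16 were, the lowest at -0.295. In animal 4 the 10 pairs had r of 0.927 to 0.996, and all 21 were positive, the lowest at 0.123. Both animals were sequenced in batches 15, 16 and 18, and in each of these animal 4 was lower than animal 1 for all 7 members. For Hbb the differences were -0.80, -0.83 and -0.515, and for Hba-a1 -0.82, -1.11 and -0.72. A limma contrast with batch as a covariate gave -0.71 ± 0.08 (SE) for Hbb and -0.88 ± 0.09 for Hba-a1, with adjusted p of 0.167 to 0.196 over the members, and of all features 0% passed with 2 residual degrees of freedom. At an unadjusted p under 0.05 there were 7 of 7 members, beside 22% of all features. Without the batch term the differences were close to 0 for Hba-a1, Hba-a2, Hbb, Hbb-bs and Alas2 (-0.01 to 0.10), 0 of 7 members passed (1 at an unadjusted p under 0.05, Hbb-b1 with a difference of -0.65), and 0.868% of features did. This contrast compares libraries of a pair of animals and not conditions.

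**Figure D5:**
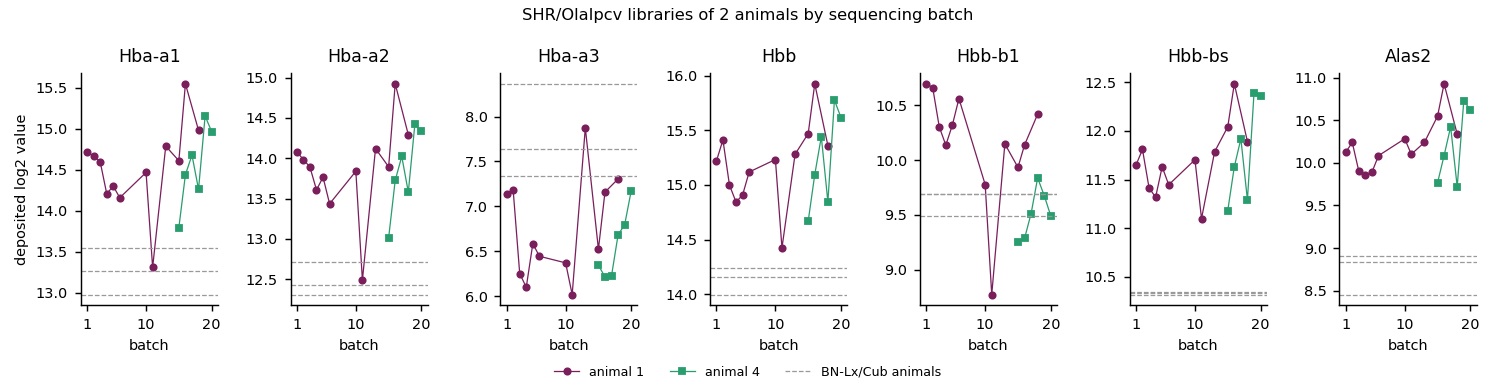
Deposited log2 values of the 7 members are plotted against the sequencing batch for the 12 libraries of SHR/OlaIpcv animal 1 and the 6 of animal 4, with dashed lines for the 3 BN-Lx/Cub animals (means over their libraries). In batches 15, 16 and 18, which both animals share, animal 4 lies below animal 1 in every panel.

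Other genes of red cells rose with the index. In a limma fit of each of 20852 other features on the index within strains, 17.2% rose and 12.4% fell at 5% FDR, which is 58.2% rising of those called. With libraries centred to the same median, 37.5% of those called rose. Without the animals numbered 3 the calls came down from 3588 rising and 2577 falling features to 22 and 0, whereas 3000 rose and 1738 fell without those numbered 1 and 1891 and 1347 without those numbered 2. The slope is given in log2 per log2 unit of the index. Among the 10 genes most closely tied to it by r of within-strain deviations were Lgals5 (0.76), Slc4a1 (0.76), Hbb-b2 (0.75), Alox15 (0.70), Ybx3 (0.64), Cdc25b (0.62), Rhd (0.61), Mylk2 (0.60) and Tent5c (0.59), all of which rose. Slc4a1, the anion exchanger of the red cell membrane, had a slope of 0.94 ± 0.07 (SE), and Hbb-b2, a further beta copy, of 0.97 ± 0.08. Alox15, the lipoxygenase of reticulocytes, had a slope of 0.91 ± 0.08, and Rhd, a blood group protein, of 0.42 ± 0.05. A slope near 1 means that the gene changed as much as the globins did. These genes passed again whichever of the animals numbered 1, 2 or 3 were left out. They had been picked by r over all animals, from which these subsets were drawn, so that this is a description. The 3 genes with the lowest r were Dnajb4 (-0.49), Rprd1a (-0.47) and Brms1l (-0.47), with slopes of -0.27, -0.21 and -0.20, and these 3 did not pass without the animals numbered 3.

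A list of red cell genes rose in part with the index. Of its 25 genes 14 rose and 0 fell, with a median slope of 0.115 beside 0.0052 over all features. That median was not particular to red cell genes, being 0.191 for platelet, 0.145 for microglial, 0.115 for meningeal and 0.113 for mural cell genes. Of the red cell genes 12, 9 and 8 rose without the animals numbered 1, 2 and 3, and 11 with centred libraries. The 8 were among the 22 features of the whole table that rose without the animals numbered 3. Among them, the chaperone of free alpha chains Ahsp had a slope of 0.44 and the erythroid factors Gata1 and Nfe2 of 0.31 and 0.40. The genes of this list with the highest values had slopes near its median or below. By limma these were Sptb with 0.12 (adjusted p = 0.0299), Ank1 with 0.08 (0.29), Dmtn with 0.11 (0.0575), Add2 with 0.11 (0.0905) and Bpgm with 0.12 (6.64e-05). Of 8 genes of haem synthesis 5 rose, with Alad at 0.29 and Urod at 0.19, and Cpox fell with a slope of -0.12. Of 10 measured genes of other globins and haem handling 5 rose, namely Hbb-b2, Hbq1b (0.30), Cygb (0.26), Blvrb (0.26) and Ngb (0.17), the latter being the globin of neurons. Genes of other blood cells were next. Of 7 platelet genes 4 rose, with Pf4 at 0.42, Tubb1 at 0.35 and Itga2b at 0.24. Of 9 lymphocyte genes 3 rose, with Lck at 0.14, and of 14 neutrophil genes 0 passed by limma (3 at an unadjusted p under 0.05), with S100a9 at 0.20 (adjusted p = 0.116) and Lyz2 at 0.06. Without the animals numbered 1, 3 neutrophil genes rose, and the lymphocyte genes came to 0 with centred libraries or without the animals numbered 2.

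Genes of vessels and brain cells passed in part, and those calls depended on which animals were used and on the scaling. Of 9 genes of plasma proteins 0 passed by limma in either direction, also 0 at an unadjusted p under 0.05, with Alb at a slope of -0.02. Of 14 endothelial genes 4 rose and 2 fell, with Cldn5 at 0.31 and Itm2a at -0.22, and of 10 mural cell genes 4 rose, with Notch3 at 0.29 and Tagln at 0.20. Of 8 meningeal genes 4 rose, with Col1a1 at 0.25, and of 8 choroid plexus genes 3, with Ttr at 0.27. Of 8 microglial genes 5 rose, with C1qa at 0.20 and Csf1r at 0.14. Of 8 neuronal genes 2 rose and 2 fell, of 6 astrocyte genes 2 rose and 1 fell, and of 6 oligodendrocyte genes 1 rose. Without the animals numbered 3, 0 genes passed on any of the lists of vessels, meninges, choroid plexus, microglia, neurons and glia, nor on those of lymphocytes and haem synthesis, and 1 platelet and 2 other globin genes did. With libraries centred to the same median, the rising genes came down to 2 of the microglial, 2 of the mural, 1 of the meningeal and 1 of the choroid plexus list, where the platelet list kept its count of 4. The counts with all animals lie beside the 17.2% of all features that rose, and the part of other cell types in the haemoglobin signal was not tested. Fewer red cells and less message per red cell cannot be told apart in such bulk samples. The strains with 3 animals at the ends of the index were also compared. The 3 lowest were BXH13/Cub, HXB17/Ipcv with its low animal 2, and M520/N with its low Hba-a3. The 3 highest were BXH5/Cub, SR/JrHsd and HXB29/Ipcv. The mean level of the red cell list was 5.82 to 5.90 in the former and 6.08 to 6.27 in the latter. That of the platelet list was 3.74 to 3.80 against 4.00 to 4.13. The endothelial list overlapped between these strains, at 9.73 to 9.87 against 9.74 to 9.88. That of other globins and haem handling overlapped too, at 8.275 to 8.487 against 8.485 to 8.547. So did the mural, meningeal, choroid plexus, microglial, neuronal, astrocyte and oligodendrocyte lists. The lists of neutrophils (3.75 to 3.84 against 3.91 to 3.93), lymphocytes (2.51 to 2.59 against 2.60 to 2.64) and haem synthesis (9.30 to 9.33 against 9.41 to 9.465) lay higher in the strains highest on the index as well, and that of plasma proteins lay lower (7.097 to 7.83 against 6.70 to 7.03). These strains were picked by the index and no share over all features is given, so that the values are a description.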

How the data were processed

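RNA of rat brain was taken from the v7.1 table of RefSeq genes, whose deposited values are on a log2 scale set by the authors. The authors describe their steps for a reconstructed transcriptome, which they do not name as one of the deposited tables: reads were trimmed with Cutadapt (1.9.1), cleared of ribosomal reads with Bowtie 2, aligned with HISAT2 to strain-specific rn6 genomes, assembled with StringTie (1.3.5) and counted with RSEM, and 1 factor of unwanted variation was removed before the regularized log of DESeq2. The submitters' processing notes name the same tools for all 232 samples, and for 39 of them, of which 36 are in v7.1 and 0 in v6 or v5, also later versions (Bowtie2 2.4.5, HISAT2 2.2.1, StringTie 2.2.1, RSEM 1.3.3). Which steps and build made v7.1, v6 and v5 is not given in the sources used here. No counts are given, so the depth per library is unknown and the number of animals limits the precision.

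Of 20932 features, 73 spike-ins were left out. Groups and batches came from the labels, and libraries of a strain that carry the same replicate number were taken as repeats of 1 animal and averaged. Nothing states that replicates were independent in litter or cage. Of the 232 samples, 18 have no column in this table and were not analysed in it. Strain, batch, slope and pair contrasts were fitted across all features with limma 3.58.1 in R 4.3.3 and adjusted by Benjamini-Hochberg (FDR 5%). Permutations (100000, two-sided for correlations and one-sided for R2) used Python 3.11.15. Alternatives left out replicates, added batch or a replicate block, centred libraries to the same median, kept features above the median, took 1 library per animal, and used the v6 and v5 Ensembl tables. Some were chosen after seeing the data: the index over other members or without Hba-a3 and Hbb-b1, and leaving out the 10 animals that stood apart or the batch 11 library of SHR/OlaIpcv animal 1.

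The members and gene lists were chosen with earlier results of these data known. Named genes were the members, the 10 highest and 3 lowest by within-strain r with the index, up to 4 abundant genes per list, and strains at the extremes; 1 of the 10 is not reported here. List genes named beyond the most abundant were chosen after their values were seen. Symbols for the v6 and v5 identifiers came from the deposited annotation. Promoters came from RefSeq (GRCr8), where all 7 members matched.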

Additional observations from a re-analysis of the deposited data

How the results depend on the processing

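All 7 members passed for strain in each alternative on the v7.1 table except among features above the median level, where 6 of 6 passed and Hba-a3 was not tested, and 4 of 4 in each of the v6 and v5 tables. At equal index, 4 of 7 passed without Hba-a3, Hbb-b1 and the member tested in the index, where 45.4% to 50.9% of all features passed. In v6 4 of 4 passed at equal index and in v5 3 of 4 (lost: Alas2). The shares of all features called for strain in v6 and v5 are not given here. All pairs of the members present stayed past 0.05 by permutation. There were fewer than 21 such pairs above the median level and in v6 and v5, where members are absent. Leaving out the animals numbered 1, 2 or 3 in turn, features called for strain ran from 2987 to 6065 (7785 with all), at equal index from 3298 to 5437, for batch from 39 to 579, among HXB/BXH strains from 1677 to 1941, rising with the index from 22 to 3000 and falling from 0 to 1738. Members called ran from 1 to 6 among HXB/BXH strains and from 0 to 5 between BN-Lx/Cub and SHR/OlaIpcv, where 207 to 1291 features were called and Hbb-b1 ran from -0.25 without number 3 to 0.081 without number 1. Between animals of different strains the mean r was 0.01 for a shared number and -0.005 for different numbers. In the HXB/BXH family the number goes in part with the sequencing batch. Leaving out a number therefore also changes the mix of batches, and these were not separated. A replicate block gave 1564 features falling with the index and 410 between the progenitors, with 4 of 7 members. With 1 library per animal the progenitors differed in 2 members and 548 features, and with batch added in 2 and 1567, beside 12382 features called for strain and 6694 among HXB/BXH strains. Among features above the median level, 3582 were called for strain, 5529 at equal index and 468 between the progenitors, fewer being tested. Batch numbers of the sample titles gave 45 features for batch. Centred libraries gave 1496 rising. In v6, 4323 features fell with the index, 408 features and 1 of 4 members differed between the progenitors, and the identifier named Hba-a3 turned to -1.35. In v5, 310 rose and 122 fell, 0 of 4 members differed and Hbb turned to 0.044. Without a batch term, SHR/OlaIpcv animal 4 minus animal 1 turned to 0.020 for Hba-a1, 0.058 for Hbb, 0.10 for Hbb-bs and 0.012 for Alas2, with 181 features called. Without the animals that stood apart, HXB/BXH minus the other inbred strains turned to 0.0096 for Hba-a3. The causes were not tested.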

Other observations

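Genes beside Hba-a3 on the chromosome were looked at after its low and high strains had been seen, so that the following is a description with no test. Of 10 neighbours in the RefSeq order that were in the table, Rgs11, a regulator of G protein signalling, had strain means over the 30 HXB/BXH strains that ran against Hba-a3 minus the index (r = -0.87). For Mpg r was -0.50, for Pdia2 0.34 and for Luc7l, the nearest measured gene on its side, 0.08. Hbq1b, the theta globin gene on the other side, had r of 0.05. Among the 10 neighbours of Hbb-b1 in the table, the largest r with Hbb-b1 minus the index in the same strains was 0.43, for Trim21, and for the beta copy Hbb-b2 it was -0.05.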
